A study of Rattus norvegicus with 6 samples.

Results

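Mesenchymal and limb transcription factors are DNA-binding proteins that set the identity of connective tissue cells and of the limb they belong to. The group described here held 10 genes chosen by name from the 34156 genes of the count table: Prrx1, Prrx2, Twist1, Twist2, Snai1, Snai2, Zeb1, Tbx4, Tbx5 and Pitx1. All 10 were listed in the table, and 7 of them were among the 13614 genes with enough counts to be tested. Rat fibroblast-like synoviocytes of the joint lining, named RA-FLS as a cell model of rheumatoid arthritis, were profiled by poly(A)-selected RNA-seq. The study asked which transcripts differ when emodin (EMO), a plant anthraquinone, is given together with the inflammatory cytokine TNF-α. The 3 libraries of the TNF-α group came from cells given 10 ng/ml TNF-α, and the 3 libraries of the TNF-α+EMO group from cells given the same TNF-α dose and 80 μmol/L EMO. All 6 libraries therefore carry TNF-α, and cells without TNF-α were not analysed here. The cells were wild type, purchased as a cell stock and used after several passages, the labels gave day 5 for every library, and the methods of the study gave 24 h of treatment.

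Prrx1 and Prrx2 are paired-related homeobox factors of limb and connective tissue mesenchyme. Twist1 and Twist2 are basic helix-loop-helix factors that bind DNA as dimers with E proteins. Snai1, Snai2 and Zeb1 are zinc finger factors known as repressors of epithelial genes, through E-box sequences of the form CACCTG, in epithelial-to-mesenchymal transition. Tbx4 and Pitx1 are known from hindlimb development and Tbx5 from forelimb development.

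The libraries held 16813322 to 17794455 counts, and 12566 to 13365 genes reached 10 counts. The 3 members that were not tested were at or near 0 in every library, and each of the 7 tested members had at least 50 counts in every library, so none of them entered the test through one group alone. The cell type named by the labels was checked with 16 markers of synovial fibroblasts. The collagen gene Col1a1 and the growth factor receptor gene Pdgfra had high counts in the TNF-α group. Thy1 had 7, 6 and 3 counts in the TNF-α group and 0 in TNF-α+EMO, Pdpn had 1 count in all 6 libraries together, and the lubricin gene Prg4, looked at after its values were seen, had at most 4 counts, so these defining surface and lining markers were absent or nearly so from both groups.

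Of the 7 tested members, 6 fell and none rose under the call used throughout, which was an adjusted p below 0.05 together with a log2 fold change (TNF-α+EMO over TNF-α) below -1 or above 1. Across all tested genes 27.8% were called lower and 19.5% higher. The remaining tested member, Zeb1, passed the adjusted p with a smaller increase, and DESeq2 likewise called 6 lower and 0 higher. At an adjusted p below 0.05 with no size limit, 80.9% of all tested genes passed, and in 82.9% the normalized counts of the groups did not overlap. All 7 tested members passed and did not overlap, so passing the test alone did not set them apart from the background. The median log2 fold change of the 7 was -2.79, beside -0.01 over all tested genes. In bulk RNA, fewer cells of a type and less RNA per cell cannot be told apart.

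**Figure D1:**
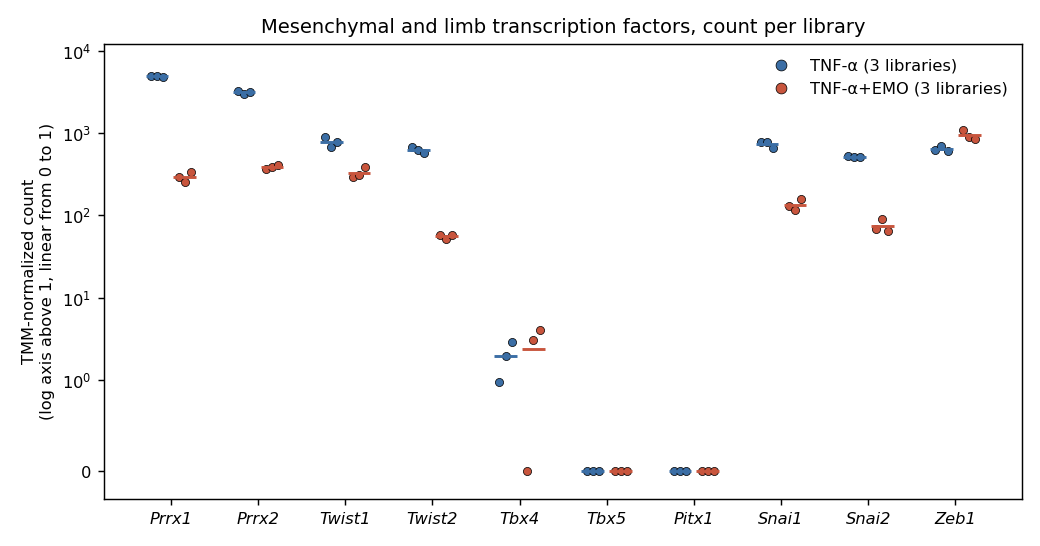
TMM-normalized counts (y axis, logarithmic above 1 and linear from 0 to 1) of the 10 genes (x axis) in each of the 3 TNF-α and 3 TNF-α+EMO libraries, 1 point per library. The points of Prrx1, Prrx2, Twist1, Twist2, Snai1 and Snai2 lay lower in TNF-α+EMO, those of Zeb1 lay higher, and Tbx4, Tbx5 and Pitx1 were at or near 0 in both groups.

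Prrx1 (ENSRNOG00000003720, chr13:81147348-81214546 on the minus strand of Rnor_6.0) was the most abundant member in the TNF-α group and had the largest decrease of the 7 tested members. Its normalized counts, which are counts scaled by library size, were 4943, 4943 and 4716 with TNF-α alone, against 290, 252 and 332 with EMO added. Every TNF-α+EMO library lay far below every TNF-α library. The mean fell 16.7-fold, from 4867 ± 131 (SD, n = 3) to 291 ± 40.2, with a log2 fold change of -4.06 (SE 0.09, edgeR adjusted p = 3.08e-11). Even so, 6.99% of all tested genes had a lower log2 fold change.

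Prrx2 (ENSRNOG00000058329, chr3:9681871-9718051, plus strand), the paralogue of Prrx1, had normalized counts of 3232, 2935 and 3145 in the TNF-α group and 363, 388 and 412 in TNF-α+EMO. The groups did not overlap, and the libraries within each group lay close together. Prrx2 fell 8.0-fold, from 3104 ± 152 to 388 ± 24.7, with a log2 fold change of -3.0 (SE 0.08, adjusted p = 4.90e-11).

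The promoters of the members were set side by side, whether or not the member was lower. Promoter sequences were available from RefSeq (assembly GRCr8) for 8 of the 10 members, and the windows examined were the 250 bases before each start. These were Prrx1, Prrx2, Twist1, Twist2 and Snai1, which fell, Zeb1, which did not, and the untested Tbx4 and Tbx5. The start-proximal 120 bases of the paired genes Prrx1 (chr13:78204074-78204193, minus strand) and Prrx2 (chr3:34530211-34530330, plus strand) are shown because these paralogues fell together yet differ in base composition. The windows contain no CACCTG on either strand, so no letter is in capitals.
Prrx1: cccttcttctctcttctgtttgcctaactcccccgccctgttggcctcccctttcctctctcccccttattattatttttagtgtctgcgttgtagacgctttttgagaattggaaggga
Prrx2: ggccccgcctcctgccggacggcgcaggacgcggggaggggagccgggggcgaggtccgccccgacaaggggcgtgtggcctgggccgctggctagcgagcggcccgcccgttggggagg
Over the full 250 bases, G and C made up 43.2% of the Prrx1 promoter and 70.0% of the Prrx2 promoter, against a median of 60.0% over the promoters of tested genes. The other 6 promoters ranged from 53.2% for Tbx5 to 69.6% for Snai1. The GC box GGGCGG was present on either strand in 5 of the 8 promoters (62.5%), against 57.9% of 10292 promoters of tested genes and 30.5% of all 33469 promoters. Those with the box were Prrx1, Prrx2, Twist1, Twist2 and the untested Tbx4. TATAAA and TAATTA, each read on both strands, were in none of the 8, in 6.39% and 2.08% of the promoters of tested genes, and in 12.9% and 4.86% of all promoters.

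Twist2 (ENSRNOG00000020355, chr9:98924134-98968510, plus strand) had normalized counts of 682, 618 and 575 in the TNF-α group and 57.8, 51.2 and 57.0 in TNF-α+EMO. The TNF-α+EMO libraries were tightly grouped and far below the others. Twist2 fell 11.3-fold, with a log2 fold change of -3.49 (SE 0.12, adjusted p = 4.77e-10). Twist1 (ENSRNOG00000011101, chr6:53401109-53403214, plus strand) changed less, with normalized counts of 883, 675 and 769 in the TNF-α group and 288, 312 and 380 in TNF-α+EMO. The groups of Twist1 did not overlap, although the lowest TNF-α library and the highest TNF-α+EMO library were closer than for any other member that fell. Twist1 fell 2.37-fold, from 775 ± 104 to 327 ± 47.8, with a log2 fold change of -1.25 (SE 0.13, adjusted p = 4.22e-06), the smallest decrease among the 6.

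Snai1 (ENSRNOG00000009594, chr3:164274710-164279378, plus strand), the zinc finger factor Snail, had normalized counts of 770, 781 and 650 in the TNF-α group and 128, 117 and 156 in TNF-α+EMO. No library of one group reached the range of the other. Snai1 fell 5.49-fold (log2 fold change -2.46, SE 0.13, adjusted p = 1.18e-08). Snai2 (ENSRNOG00000047699, chr11:90403333-90406797, minus strand), the related factor Slug, had normalized counts of 525, 511 and 503 in the TNF-α group and 68.1, 90.1 and 64.2 in TNF-α+EMO. Its TNF-α libraries hardly varied, and TNF-α+EMO library 2 stood a little above the other two. Snai2 fell 6.91-fold, from 513 ± 11.2 to 74.1 ± 13.9, with a log2 fold change of -2.79 (SE 0.14, adjusted p = 8.44e-09).

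Zeb1 (ENSRNOG00000017863, chr17:54658463-54714914, minus strand) went the other way from the Snail factors. Its normalized counts were 622, 694 and 609 in the TNF-α group and 1076, 898 and 841 in TNF-α+EMO. All 3 TNF-α+EMO libraries were above all 3 TNF-α libraries, with library 1 the highest. The mean was 1.46-fold higher, 938 ± 122 against 642 ± 46.0, with a log2 fold change of 0.55 (SE 0.10, adjusted p = 5.14e-04), past the adjusted p and short of the size limit. In TPM, which are counts divided by gene length and scaled to the same total in each library, the Zeb1 ranges overlapped (20.5 to 23.6 in TNF-α and 21.1 to 29.2 in TNF-α+EMO), so the groups of Zeb1 separate in TMM-normalized counts and not in TPM. Its paralogue Zeb2 was lower, at 892 ± 71.4 against 1352 ± 62.4 normalized counts (log2 fold change -0.60, SE 0.08, adjusted p = 3.22e-05), also short of the size limit.

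The E-box hexamer CACCTG, to which Snail and ZEB factors are known to bind, was found once each in the promoters of Snai1 and Zeb1 and in none of the other 6 members with a sequence. Read on both strands (CAGGTG on the other strand), it was in 15.9% of all promoters and in 14.0% of those of tested genes. In the epithelial genes described further on, the textbook targets of these factors, it was in 9 of the 11 promoters available. Of the 20 genes in that list, Cdh1, Cdh3 and Cldn4 were among those without a sequence. Of the genes with the hexamer, Krt8 fell. Dsp and Tjp3, named after their values were seen, did not pass the adjusted p, and the others were not tested. The 60-base windows with the hexamer in capitals are shown for the pair of members that hold it (Snai1, chr3:176667307-176667366, plus strand; Zeb1, chr17:56810716-56810775, minus strand) and, for comparison, for the epithelial genes Epcam (chr6:12649811-12649870, minus strand) and Krt8 (chr7:135010521-135010580, minus strand), all in GRCr8.
Snai1: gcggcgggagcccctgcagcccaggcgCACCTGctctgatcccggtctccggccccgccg
Zeb1: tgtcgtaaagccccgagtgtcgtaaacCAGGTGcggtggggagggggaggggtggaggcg
Epcam: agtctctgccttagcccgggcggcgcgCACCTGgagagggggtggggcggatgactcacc
Krt8: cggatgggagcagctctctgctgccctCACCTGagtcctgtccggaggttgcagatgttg
The hexamer lay 142 bases before the start in Snai1, 95 in Zeb1, 165 in Epcam and 214 in Krt8. A match of letters does not show binding, which was not measured.

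The limb identity factors were at or near 0. Tbx4 (ENSRNOG00000003544, chr10:73333119-73362783, plus strand) had 1, 2 and 3 counts in the TNF-α group and 0, 3 and 4 in TNF-α+EMO. Tbx5 (ENSRNOG00000001399, chr12:42097626-42148146, plus strand) and Pitx1 (ENSRNOG00000011423, chr17:8878270-8884423, plus strand) had 0 counts in all 6 libraries. A count of 0 allows up to 3 counts in a library, which is 0.169 to 0.178 CPM (counts scaled by the library total) here, so a gene at 0 may have a level up to that. None of the 3 was tested.

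**Figure D2:**
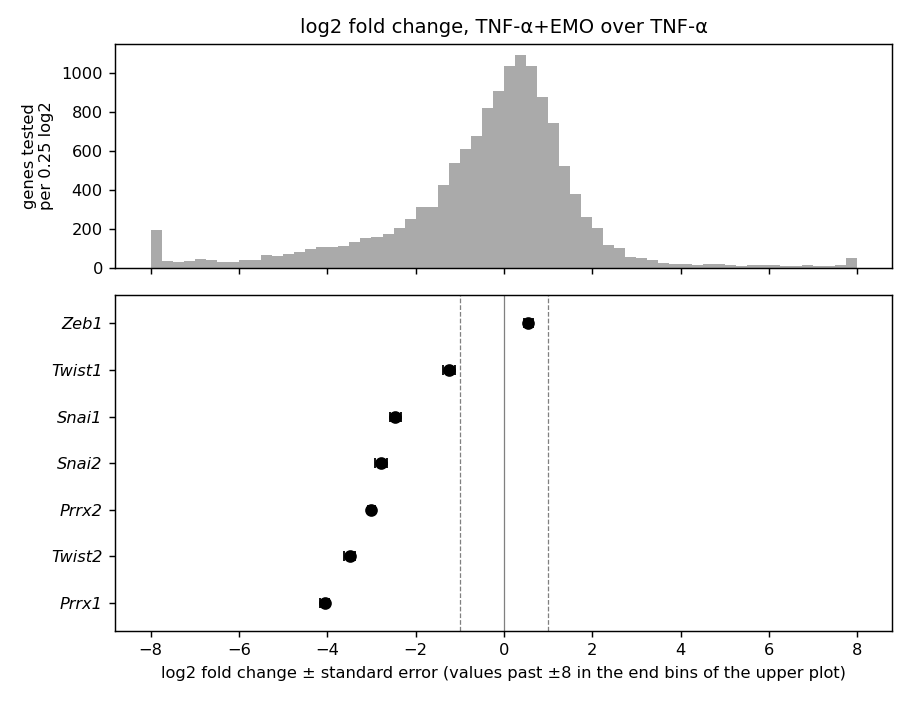
Log2 fold changes of TNF-α+EMO over TNF-α. The upper plot counts all 13614 tested genes per bin, and the lower plot gives the 7 tested members with their standard errors and dashed lines at the size limits, where 6 points lay between -4.06 and -1.25 and Zeb1 at 0.55.

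Levels of different genes were compared only per gene length, in TPM. In the TNF-α group Prrx1 (647 ± 18.2 TPM) and Prrx2 (290 ± 11.5 TPM) stood above all other members, and Prrx1 was at the 98.5th percentile of tested genes. Twist2 (60.5 ± 4.82 TPM), Twist1 (55.2 ± 6.86 TPM) and Snai1 (45.8 ± 4.59 TPM) followed, each overlapping its neighbour, then Snai2 (29.9 ± 0.501 TPM) and Zeb1 (21.6 ± 1.73 TPM) without overlap. In TNF-α+EMO, Prrx1 (30.1 ± 3.28 TPM), Prrx2 (28.2 ± 0.741 TPM) and Zeb1 (24.7 ± 4.14 TPM) overlapped at the top of the order. Twist1 (18.1 ± 1.84 TPM) and Snai1 (6.48 ± 0.736 TPM) came next, and Twist2 (4.18 ± 0.304 TPM) and Snai2 (3.38 ± 0.703 TPM) overlapped below them. Prrx1 was then at the 65.9th percentile. Zeb1 ranked at the 49.7th percentile in the TNF-α group and the 62.0th in TNF-α+EMO, although its own TPM ranges overlapped between the groups. The levels of Prrx1 rest on the deposited gene length of 862 bases, the shortest of the 10.

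The summed level of the 10 members was 1150 ± 26.6 TPM in the TNF-α group and 115 ± 4.12 TPM in TNF-α+EMO, with no overlap between the groups. In normalized counts, which are not divided by gene length, the sum fell less, from 11260 ± 356 to 2209 ± 85.9. TPM and normalized counts scale the libraries differently, so a single gene differs between them too, whatever its length. Zeb1 went from 641.7 to 938.5 in mean normalized counts and from 21.6 to 24.7 in mean TPM. The TPM sum also gives more weight to short genes such as Prrx1. Prrx1 and Prrx2 together made up 81.5% ± 0.71 of that sum in the TNF-α group and 50.6% ± 1.74 in TNF-α+EMO. The share of Zeb1 was 1.88% ± 0.151 and 21.5% ± 3.36.

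**Figure D3:**
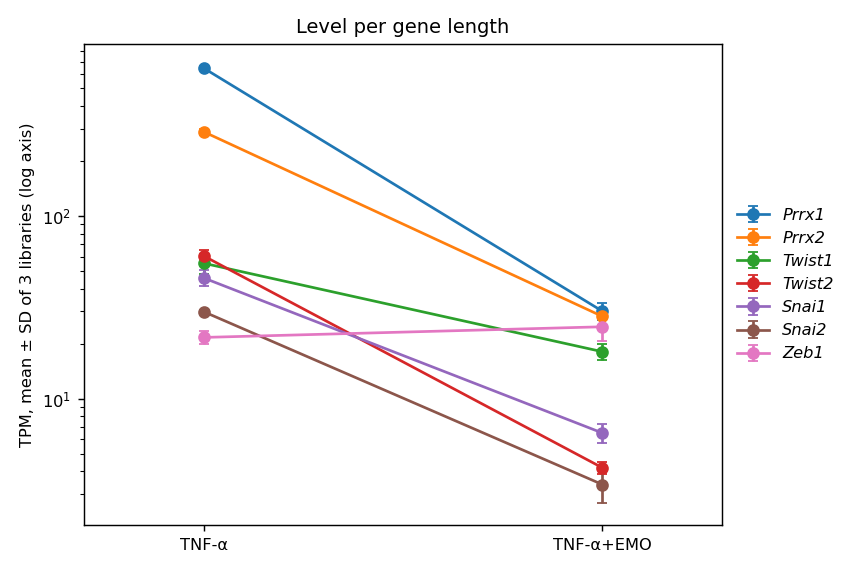
Mean level per gene length in TPM (y axis, log scale, bars are SD of 3 libraries) of the members in the TNF-α and TNF-α+EMO groups, 1 line per gene. Prrx1 and Prrx2 fall from 647 and 290 TPM to near 30, where they meet Zeb1.

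The paralogues were then compared with each other, since a ratio within a library does not depend on how libraries are scaled. The TPM of Prrx1 was 2.18, 2.40 and 2.13 times that of Prrx2 with TNF-α alone, against 1.14, 0.924 and 1.15 times with EMO added. The log2 ratio was thus lower by a difference of -1.07 (SE 0.11) in TNF-α+EMO, with no overlap between the groups. Twist1 over Twist2 was 0.952, 0.802 and 0.983 in the TNF-α group and 3.66, 4.49 and 4.90 in TNF-α+EMO, so Twist2 was slightly above Twist1 in every TNF-α library and well below it in every TNF-α+EMO library (log2 difference 2.21, SE 0.15). Zeb1 over Zeb2 turned over too, at 0.586, 0.630 and 0.606 in the TNF-α group and 1.44, 1.28 and 1.32 in TNF-α+EMO (log2 difference 1.14, SE 0.06). Snai1 over Snai2 overlapped between the groups, at 1.57, 1.64 and 1.38 against 2.01, 1.39 and 2.60, and the log2 difference of 0.33 (SE 0.27) ranged from 0.12 to 0.56 when single libraries were left out. The exact two-sided permutation p was 0.1 for Prrx, Twist and Zeb, the smallest that 3 libraries against 3 can give, and 0.4 for Snai. Adjusted over the 4 pairs compared, the exact p was 0.133 for each of the first 3 and 0.4 for Snai, so no pair could pass 0.05 in this design. Tbx4 and Tbx5 gave no ratio.

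**Figure D4:**
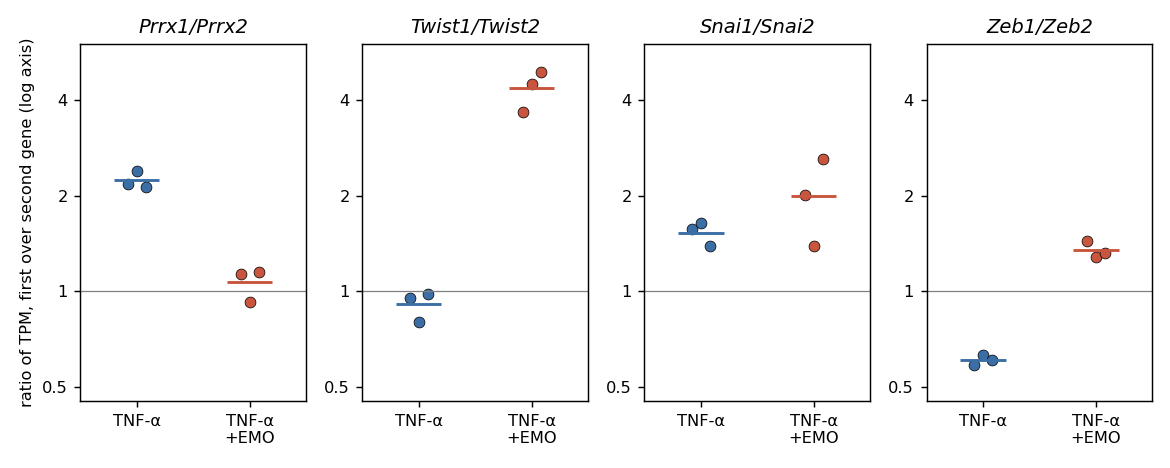
TPM ratio of the first over the second paralogue (y axis, log scale, line at equal levels) in each library of the TNF-α and TNF-α+EMO groups, 1 panel per pair. The ratios of Prrx1/Prrx2, Twist1/Twist2 and Zeb1/Zeb2 separate by group, and those of Snai1/Snai2 overlap.

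Other mesenchymal and limb transcription factors gave the setting for these members. Of 66 such genes listed, 64 were in the table and 36 were tested, of which 24 fell, 1 rose and 4 did not pass the adjusted p, with a median log2 fold change of -1.60. A further 22 had at most 3 counts in every library. The chondrogenic factor Sox9 fell from 488 ± 46.0 to 4.10 ± 2.72 normalized counts (log2 fold change -6.85, SE 0.27, adjusted p = 1.53e-09). Gli2, a transducer of hedgehog signalling, fell from 1011 ± 38.2 to 16.4 ± 3.57 (log2 fold change -5.94, SE 0.14, adjusted p = 2.64e-11). The single factor that rose was Ebf2, named after its values were seen, with 0 counts in all TNF-α libraries and 19, 11 and 16 in TNF-α+EMO, at least 5.36-fold higher against a floor of 3 counts per library. Both Sox9 and Gli2 fell further than any of the members.

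Among these 36 factors, the one nearest to a member was found by the Euclidean distance of log2 levels centred over the 6 libraries, which largely follows the difference between the groups. Nearest to Prrx1 was the tendon homeobox factor Mkx at a distance of 0.337, with 114 ± 9.89 and 5.80 ± 1.15 normalized counts. Mkx had only 5, 5 and 7 counts in TNF-α+EMO. The prior count of 2 in the log2 levels makes its decrease smaller there, so this distance depends on that setting. Foxp1 was nearest to both Prrx2 (0.414) and Snai2 (0.533), with 3631 ± 152 and 436 ± 57.2 normalized counts. Twist1 was nearest to Tbx3 (0.430) and Snai1 to Foxc1 (0.570). Zeb1 had the most distant neighbour, Pbx3 (0.634), with 288 ± 35.2 and 333 ± 39.2 normalized counts and no pass in its own test (log2 fold change 0.21, SE 0.13, adjusted p = 0.152).

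**Figure D5:**
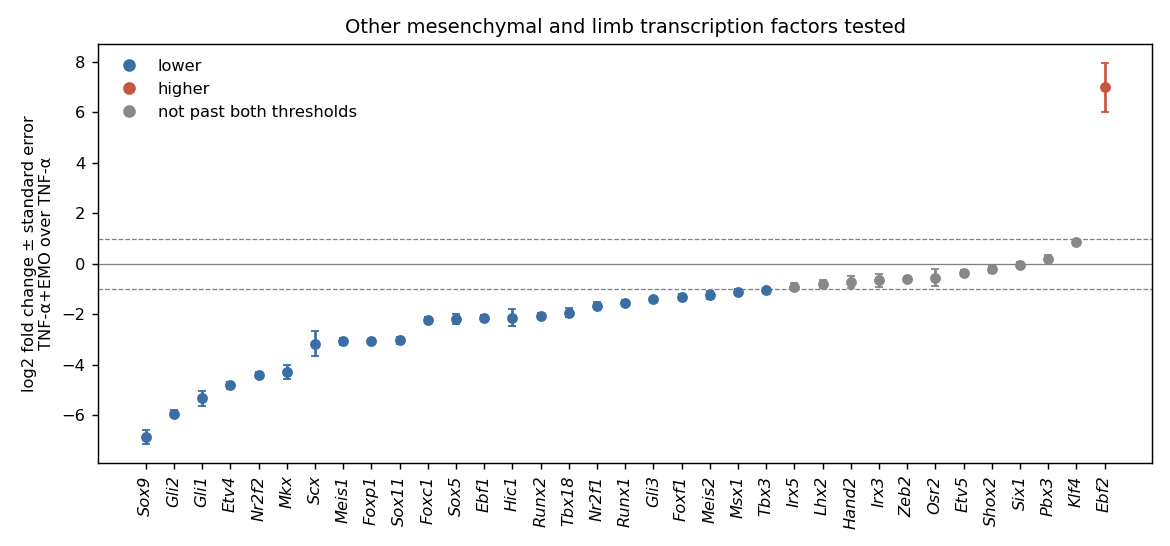
Log2 fold change with standard error (y axis) of tested mesenchymal and limb factors outside the group of 10, in order of size, with 1 of the 36 not shown. Most lie below 0, from Sox9 at -6.85, and Ebf2 is the only one above 1.

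Genes whose products work with these factors changed in part. Of 20 listed partners, 18 were tested, 9 fell, 1 rose and 1 did not pass the adjusted p (median log2 fold change -0.88). They included the E proteins that pair with Twist factors and the Id proteins that sequester E proteins. The E protein gene Tcf4 fell from 692 ± 26.8 to 68.6 ± 12.7 normalized counts (log2 fold change -3.33, SE 0.13, adjusted p = 1.20e-09). Id4 fell from 1028 ± 79.8 to 71.1 ± 13.8 (log2 fold change -3.85, SE 0.13, adjusted p = 4.63e-10). The E protein gene Tcf12 and the gene of the Snail cofactor LSD1, Kdm1a, both named after their values were seen, had log2 fold changes of 0.37 (SE 0.08, adjusted p = 1.36e-03) and 0.02 (SE 0.08, adjusted p = 0.808). The partner that rose was Ovol1, an epithelial factor known as a repressor of Zeb1, with 11, 12 and 7 counts in the TNF-α group and 29, 41 and 54 in TNF-α+EMO, also named afterwards.

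Epithelial genes are the textbook targets of Snail and ZEB repression. Of 20 listed, 10 had at most 3 counts in every library and 6 were tested, of which 3 fell, 1 rose and 2 did not pass. Cdh1, which encodes E-cadherin, had 6, 2 and 0 counts in the TNF-α group and 0 in all TNF-α+EMO libraries, and Epcam had 0 in all 6. Krt8, a keratin of simple epithelia, fell from 10390 ± 432 to 2140 ± 168 normalized counts (log2 fold change -2.28, SE 0.07, adjusted p = 2.52e-10). Cdh3, which encodes P-cadherin, fell from 3425 ± 78.2 to 32.1 ± 10.7 (log2 fold change -6.73, SE 0.14, adjusted p = 1.34e-11). The epithelial gene that rose was Cldn4, a claudin of tight junctions named after its values were seen, absent from the 3 TNF-α libraries (0 counts) and at 16, 17 and 28 counts with EMO, at least 7.10-fold higher against a floor of 3 counts per library. Cldn4 also entered the test through TNF-α+EMO alone.

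Mesenchymal effector genes fell with few exceptions. Of 18 listed, 17 were tested, 15 fell, none rose at any size past the adjusted p in edgeR, and 1 did not pass (median log2 fold change -4.37). Col3a1, a fibrillar collagen, fell from 11630 ± 269 to 26.7 ± 6.88 normalized counts (log2 fold change -8.76, SE 0.12, adjusted p = 1.49e-12). Col1a1 fell from 111200 ± 9932 to 3709 ± 46.1 (log2 fold change -4.91, SE 0.08, adjusted p = 2.83e-12). Acta2, the smooth muscle actin of myofibroblasts, fell from 458 ± 24.4 normalized counts to 1, 0 and 0 counts, at least 149-fold lower against a floor of 3 counts per library (adjusted p = 2.79e-10).

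Limb signals gave a like picture in a smaller list. Of 15 growth and patterning genes, 8 were tested, 7 fell and none passed the upper size limit, and the remaining gene, Fgfr2, named afterwards, was higher past the adjusted p (log2 fold change 0.42, SE 0.07, adjusted p = 1.66e-04). The median log2 fold change was -4.38, or -2.99 with Fgf10 set at its bound, since it was at 0 in every TNF-α+EMO library. Grem1, a BMP antagonist of the limb bud, fell from 9937 ± 86.5 to 13.7 ± 4.57 normalized counts (log2 fold change -9.49, SE 0.12, adjusted p = 1.14e-12). Bmp2 fell from 6319 ± 212 to 116 ± 15.0 (log2 fold change -5.76, SE 0.09, adjusted p = 3.34e-12).

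Markers of cell types were looked at in the same way. These marker lists share genes with the lists above, including Col1a1, Col3a1, Acta2 and Sox9, so the counts of the lists are not separate from each other. Of the 16 synovial fibroblast markers, 15 were in the table and 12 tested, of which 10 fell and 2 rose. Their summed normalized counts ranged from 168900 to 189900 in the TNF-α group and from 9901 to 10650 in TNF-α+EMO. Most of the TNF-α sum was Col1a1 (111200 ± 9932). The largest part in TNF-α+EMO was Htra1, named afterwards (5252 ± 382), followed by Col1a1 (3709 ± 46.1). Pdgfra fell from 20840 ± 260 to 216 ± 33.9 (log2 fold change -6.59, SE 0.11, adjusted p = 3.34e-12), with an overlapping gene of at most 6 counts in any library. Lum, a small proteoglycan, went from 235, 263 and 244 counts to 0 in each library, at least 78.6-fold lower. Cd55 rose from 153 ± 23.7 to 757 ± 96.0 (log2 fold change 2.31, SE 0.14, adjusted p = 3.56e-08), as did Dcn, named afterwards, from 0, 4 and 1 counts to 33, 24 and 26. Dcn entered the test through TNF-α+EMO alone.

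Markers of other cell types were few. Of 11 macrophage markers, 3 were tested, with 1 lower and 1 higher, and their sums ranged from 1203 to 1306 normalized counts in the TNF-α group and from 747 to 818 in TNF-α+EMO. Most of this was Cd14, the endotoxin co-receptor, at 1093 ± 57.8 and 510 ± 41.2. The other tested markers went up, the lysosomal gene Cd68 from 153 ± 14.7 to 257 ± 11.3 normalized counts (log2 fold change 0.75, SE 0.13, adjusted p = 2.42e-04) and the integrin gene Itgam from 1, 0 and 0 counts to 12, 10 and 14, and the median log2 fold change of the 3 was 0.75. The complement genes C1qa and C1qb, Cd163 and Tyrobp had 0 counts in all 6 libraries. Of 7 pericyte and muscle markers 4 were tested and 3 fell, with sums from 995 to 1071 and from 77.8 to 92.7, and Rgs5 was at 0 throughout. The smooth muscle myosin gene Myh11 fell from 376 ± 26.9 to 13.7 ± 3.02 (log2 fold change -4.77, SE 0.18, adjusted p = 1.16e-09). Of 7 chondrocyte markers the single one tested was Sox9, with sums from 470 to 563 and from 13.2 to 14.4, and the cartilage genes Acan and Col9a1 were at 0 throughout. The single endothelial marker tested, Vwf, was lower, with sums over the 7 markers in the table from 70.2 to 76.5 and from 16.3 to 22.7 and with Kdr, Emcn and Cldn5 at 0. Of 8 lymphocyte markers the single one tested, Lck, was lower, with sums from 47.8 to 59.8 and from 17.5 to 31.7, and with Ms4a1 and Cd3d at 0. That call was lost without TNF-α library 1 or 3 or TNF-α+EMO library 1, and when at least 50 counts were required. Markers other than Cd14, Sox9 and Myh11 are named here after their values were seen. The part of these shifts in the lower counts of the members was not tested.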

How the data were processed

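Poly(A)-selected paired-end libraries were made from 3 TNF-α and 3 TNF-α+EMO samples, grouped by the sample labels. Per the submitters' processing notes, FastQC, Trimmomatic and HISAT2 (version 2.0.5 in the study's methods) were used with Rnor_6.0. The counting program, annotation version and strand setting are not given in the sources used here. The authors deposited raw counts per gene, which every result uses. The authors also deposited FPKM values, which were not used. The authors' deposited comparison with DEseq holds group mean scores, log2 fold changes and p-values with their adjusted form, and none was used.

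The 13614 genes reaching 10 counts in 3 or more libraries were fitted with edgeR 4.0.16 in R 4.3.3 (TMM scaling, robust quasi-likelihood F test, Benjamini-Hochberg adjustment over all tested genes), and the fit was tested on simulated data. Normalized counts are counts scaled by TMM effective library size. TPM was computed from counts and the deposited gene lengths. Log2 levels used a prior count of 2. The common biological coefficient of variation was 0.12. DESeq2 1.42.0, other scalings and filters, the replicate block and left-out libraries were alternatives. Floors of 3 counts cover counting error only. Of the named genes, Ebf2, Cldn4, Dcn and Itgam reached 10 counts in TNF-α+EMO libraries alone. Sox9, Mkx, Acta2, Lum, Vwf and Fgf10 reached it in TNF-α libraries alone. The direction of each was therefore set once it entered the test. The study's methods call the 3 samples of a group biological replicates, and whether these were separate cultures is not given in the sources used here, so p-values measure the spread between these samples.

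The members, lists and tests were chosen with earlier results of these data known. Beside all members, the text names from each list up to 2 called genes with the largest decrease and 2 with the largest increase (mean of at least 50 normalized counts, no overlap between groups), the nearest factor of each member (that of Twist2 is not reported here), and Zeb2, Cdh1, Epcam, Col1a1, Pdgfra, Thy1 and Pdpn. Others are said to be named afterwards. The listed genes Foxf2, Sox4, Fbxl14, Col1a2 and Pecam1 were not analysed here.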

Additional observations from a re-analysis of the deposited data

How the results depend on the processing

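The log2 fold changes of the 7 tested members kept their direction and their side of the adjusted p in all 12 alternative fits (DESeq2, RLE and upper-quartile scaling, no filter or at least 50 counts, the replicate block, and each library left out), ranging from -4.17 to -3.97 for Prrx1, -3.05 to -2.96 for Prrx2, -3.55 to -3.43 for Twist2, -2.96 to -2.70 for Snai2, -2.59 to -2.37 for Snai1, -1.38 to -1.14 for Twist1 and 0.43 to 0.62 for Zeb1, whose adjusted p was at most 4.93e-03. These fits called 6 members lower and 0 higher. None of them used TPM, in which the Zeb1 ranges of the groups overlapped. With no fold change threshold 1 member, Zeb1, was called higher, and with a log2 threshold of 2 the members called lower were 5, since Twist1 was lost. With the replicate block 6 members were called lower and 6421 genes in all, against 6442 without it, and no member's call changed. The sources do not state that the replicate numbers pair the libraries, so the numbers were not taken as pairs. Deviations of libraries with the same number in the 2 groups had correlations of -0.00683 to 0.0676. Those with different numbers had -0.0701 to 0.0528. With 3 libraries per group this check is weak and cannot exclude pairing. Without a filter 7408 genes were called. Ebf2, Ovol1, Cldn4, Itgam, Dcn, Lck and Fgf10 left the test when at least 50 counts were required. Depth limits Tbx4, Tbx5 and Pitx1, and no batch is given in the labels.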

Other observations

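The families to which the members belong, as assigned in the deposited table, were counted in the same way. Across all tested genes, 27.8% were called lower and 19.5% higher (median log2 fold change -0.01). Of 67 tested homeobox genes, 29 fell and 6 rose (median log2 fold change -0.90). Of 51 tested basic helix-loop-helix genes, 15 fell and 8 rose (median -0.43). Of 358 tested C2H2 zinc finger genes, the family of Snai1, Snai2 and Zeb1, 63 fell and 42 rose (median 0.09). Only 4 of 17 T-box genes were tested, and 2 of them fell. Over all 964 tested genes with a family entry, 282 fell and 117 rose (median -0.25). The share that fell was above that of all tested genes for homeobox genes, close to it for basic helix-loop-helix genes and below it for C2H2 genes. The share that rose was below that of all tested genes in each of these families. These counts include the members, and the differences between families were not tested.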
